A study of Mus musculus with 4 samples.

Results

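The 39 genes described here copy the genome or feed and time its copying in S phase. They were chosen by name from knowledge of replication and of the G1/S transition, with earlier results of these data known. Of the 39, 38 were found by their symbol on the array, of 18193 genes in all. Chaf1a was not analysed here. The 38 genes had 82 probe sets of their own, of which 12 stayed below the floor on every array. The samples were 4 cultures of MC3T3-E1, an immortal line of preosteoblasts from newborn C57BL/6 mouse calvaria, with 1 array each. They were osteogenic medium for 6 days, normal medium for 6 days, osteogenic medium for 3 days and normal medium for 3 days. Normal medium was MEM α with 10% fetal bovine serum, at 37°C in air with 5% CO2, and osteogenic medium added beta-glycerophosphate at 10 mM, a phosphate donor, and ascorbic acid 2-phosphate at 150 µM, a stable form of vitamin C. All 4 cultures thus shared the line, the basal medium and the serum.

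DNA replication is prepared in G1, when the origin recognition complex with Cdc6 and Cdt1 loads the ring-shaped MCM helicase onto DNA. In S phase Cdc45 and the GINS complex turn the ring into an active helicase, polymerase α with its primase starts each strand, and polymerases δ and ε extend it while held to DNA by the sliding clamp PCNA. Most of these genes are transcribed under E2F factors as cells pass from G1 into S, so their mRNA is high in dividing cultures and low in resting ones. In osteoblast cultures, proliferation is known to give way to matrix maturation and mineral deposition.

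Values are called signal here: the deposited linear intensity of a probe set, rescaled so that all arrays share their 75th percentile, with a floor at 57.8, the pooled 50th percentile. A gene was counted as measured in a comparison if it was above that floor on at least 1 of the 2 arrays, and as higher or lower if the arrays differed by 2-fold or more. With 1 array per group these differences have no test and no error from replicate cultures, and precision is limited by how few arrays there are. The typical error of a single probe set, from pairs of probe sets of the same gene, was 0.22 on the log2 scale for the medium difference at day 6, 0.24 for that at day 3, 0.24 for the difference between days in osteogenic medium and 0.21 for that in normal medium. It covers the probe alone. Col1a1, a gene of type I collagen of bone, had a signal of 50547 in osteogenic and 49645 in normal medium at day 6, and 52437 in osteogenic and 60659 in normal medium at day 3. Ibsp, which encodes bone sialoprotein, had 11063 in osteogenic and 255 in normal medium at day 6, and 4468 in osteogenic and 386 in normal medium at day 3. In contrast, 5 of 5 adipocyte, 5 of 6 endothelial and 4 of 5 leukocyte markers were at the floor on every array. Of 6 chondrocyte markers 3, Acan, Comp and Col10a1, were at the floor on every array. The summed signal of the 6 was 6224 in osteogenic and 2633 in normal medium at day 6, and 3952 in osteogenic and 2818 in normal medium at day 3. Most of that difference lay in Col2a1, with 4133 in osteogenic and 853 in normal medium at day 6, and 1967 and 903 at day 3. Sox9 had 1953 in osteogenic and 1673 in normal medium at day 6, and 1836 and 1761 at day 3. Matn3 was at the floor on both day 6 arrays. The osteogenic day 6 array had a signal of 746 for the 5′ control probe set of small-subunit ribosomal RNA, against 5202 to 9162 on the others. Its ratio of 3′ to 5′ control signal was 0.763 for Gapdh and 1.25 for Actb, within 0.756 to 0.769 and close to 1.17 to 1.23 on the other arrays. The part of that ribosomal signal, or of the chondrocyte markers, in the values below was not tested.

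The replication genes were brightest in osteogenic medium at day 3 and dimmest in osteogenic medium at day 6. The osteogenic day 6 array held the lowest of the 4 signals for 35 of 38 genes, and the osteogenic day 3 array the highest for 33. The 35 include Tyms by its signal before the floor was applied. Both day 6 signals of Tyms were below the floor, so their order is not known. The shares of all genes with these orders were not counted. At day 6, 10 of 37 measured genes were lower in osteogenic than in normal medium, where 2.78% of all 11901 measured genes were, and 0 were higher (4.18% of all genes); with all probe sets of each gene averaged, 6 were lower. Mcm5, Cdc45, Ccne2, E2f1, Pola1 and Tk1 passed 2-fold by less than the probe error and Cdc6, Rrm2 and Uhrf1 by more, while the value of Eme1 is a bound set by the floor. At day 3, 1 of 38 was higher in osteogenic medium (1.99% of all genes), and 0 were lower (1.59%). The median log2 difference of the measured replication genes was -0.67 at day 6 and 0.35 at day 3, beside 0.013 and 0.0092 over all measured genes. The 1 gene past 2-fold at day 3 is a share near that of all genes, and the positive median there rests on many differences of under 2-fold.

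**Figure D1:**
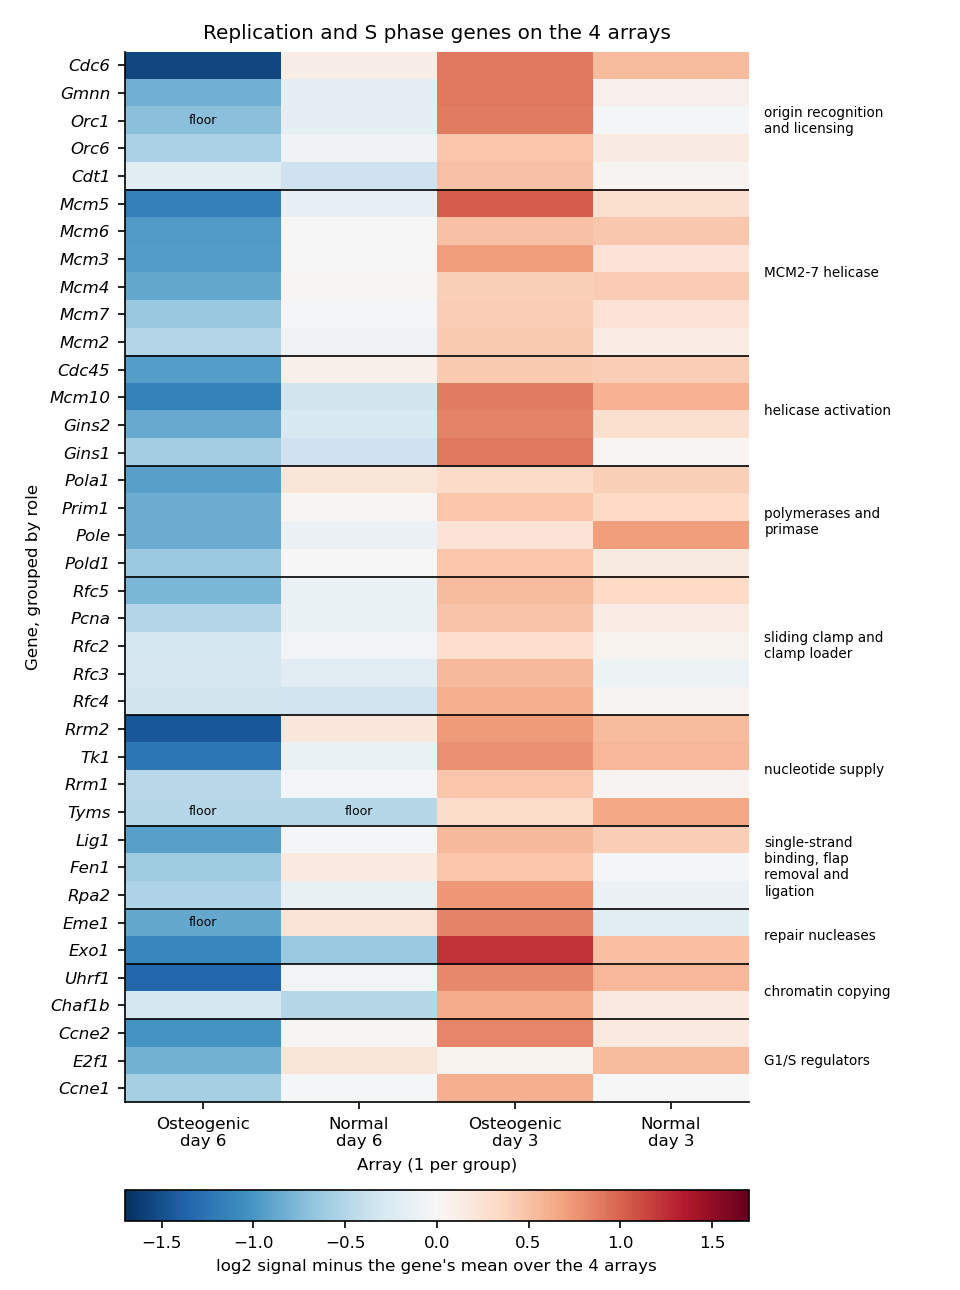
Log2 signal of 38 replication and S phase genes (rows, grouped by role) on the 4 arrays (columns, 1 per group), each minus the gene's mean over the 4 arrays, with red above and blue below that mean and "floor" where the signal was at or below 57.8. The osteogenic day 6 column is lowest for 35 genes and the osteogenic day 3 column is highest for 33. The 35 include Tyms, whose day 6 cells are both at the floor and thus level here.

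By direction alone, 34 of 37 genes lay below zero at day 6 (48.8% of all genes) and 33 of 38 above zero at day 3 (51% of all genes). Of the 37 genes measured at both days, 30 were above zero at day 3 and below it at day 6, a pattern that 18.8% of all 11259 genes measured at both days had. The other 7 were Cdt1, Chaf1b and Rfc4, above zero at both days, and Mcm4, Pola1, Pole and E2f1, below zero at both. In bulk RNA, fewer cells in S phase and less of these mRNAs per cell cannot be told apart.

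The promoters were searched for the motif of E2F factors, which are known to act on many of these genes, so the choice of genes was not independent of it. RefSeq promoters of assembly GRCm38.p6, 250 bases before to 50 after each start site, were found for 31 of the 39 genes, 36 promoters in all. The consensus to which E2F factors bind was searched for on both strands in 4 forms, TTTGGCGC, TTTCCCGC, TTTCGCGC and TTTGCCGC. It was present in 12 of the 36 promoters (33.3%), each of another gene, against 607 of 21263 promoters of protein-coding genes (2.85%) and 2.26% of all 32851 promoters. The CCAAT box, bound by the factor NF-Y, is far more common and was in 55.6% of the 36 promoters, against 37.4% of all promoters. The letters TTTGAA of the CHR element, known from promoters of mitotic genes, were in 11.1%, against 17.9% of all promoters. The stretches that hold the E2F motif before the start site are shown for the 8 genes that have one there, 5′ to 3′ on the strand of the gene, with the motif in capitals; where 2 matches on opposite strands overlap, as in Mcm5 and Mcm6, the capitals run over both.
Cdc6 (chr11:98907988-98908045, plus strand): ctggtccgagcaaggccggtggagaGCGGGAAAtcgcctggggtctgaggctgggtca
Orc1 (chr4:108579402-108579453, plus strand): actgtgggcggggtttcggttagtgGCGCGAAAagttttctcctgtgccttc
Mcm5 (chr8:75109331-75109392, plus strand): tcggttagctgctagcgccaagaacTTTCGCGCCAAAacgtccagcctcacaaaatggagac
Mcm6 (chr1:128359720-128359840, minus strand): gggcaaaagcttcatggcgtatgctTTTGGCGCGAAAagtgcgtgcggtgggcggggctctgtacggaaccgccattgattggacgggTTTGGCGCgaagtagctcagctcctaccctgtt
Mcm7 (chr5:138172016-138172073, minus strand): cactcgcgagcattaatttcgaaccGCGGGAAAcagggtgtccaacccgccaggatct
Pola1 (chrX:93632261-93632318, minus strand): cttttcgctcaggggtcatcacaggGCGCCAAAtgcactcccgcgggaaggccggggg
Rfc3 (chr5:151651209-151651243, minus strand): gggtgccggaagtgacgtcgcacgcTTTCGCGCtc
Uhrf1 (chr17:56304103-56304160, plus strand): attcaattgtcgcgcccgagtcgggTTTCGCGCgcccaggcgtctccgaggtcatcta

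In Mcm3, Lig1, Pold1 and Cdt1 the motif lay only after the start site. The 12 genes with the motif had a median log2 medium difference of -0.91 at day 6, with a range of -1.66 to 0.17, and the 17 measured genes whose promoters lacked these letters had -0.66, with a range of -1.61 to 0.18. The ranges overlap almost wholly, and a match describes the sequence only. Rrm2 and Tk1, among the lowest ratios at day 6, had none of the 4 forms in this window.

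**Figure D2:**
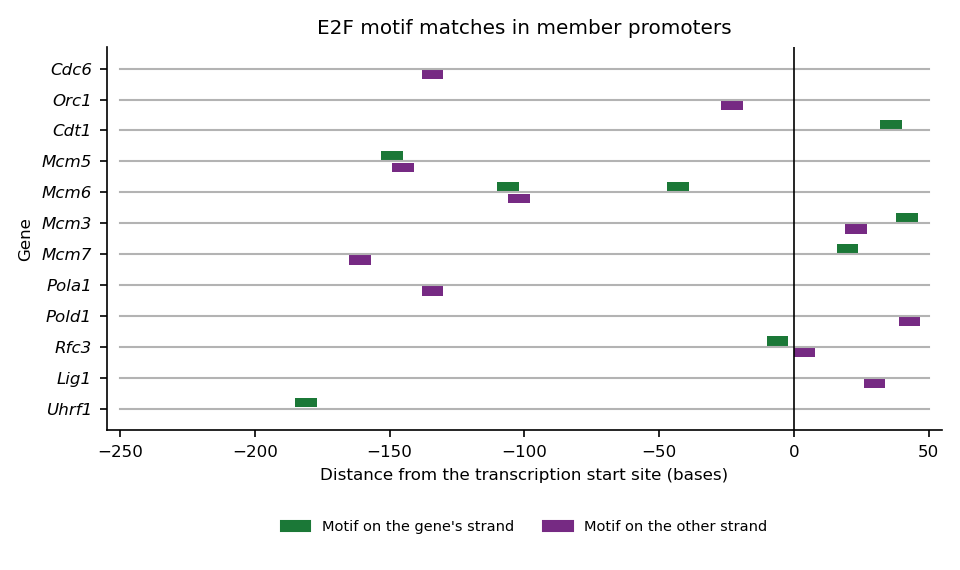
Positions of the E2F motif in the promoters of 12 replication and S phase genes (rows), as distance from the transcription start site in bases, with bars above the line for the gene's own strand and below it for the other strand. Matches lie on both sides of the start site, and those of Mcm5 and Mcm6 include overlapping pairs.

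Among the genes that mark and license origins, Cdc6, the ATPase that helps load the helicase, had the largest medium difference at day 6, with that of Orc1 a bound. Its signal was 113 in osteogenic and 356 in normal medium at day 6, and 616 in osteogenic and 479 in normal medium at day 3. The osteogenic day 6 value is far below the other 3, 3.15-fold below normal medium of the same day. Gmnn encodes geminin, which holds Cdt1 inactive in S and G2 to prevent relicensing. It had a signal of 359.9 in osteogenic and 573 in normal medium at day 6, and 1186 in osteogenic and 667 in normal medium at day 3. Orc1, the largest subunit of the origin recognition complex, had a signal of 44.7 in osteogenic and 84.6 in normal medium at day 6, and 175 in osteogenic and 92.3 in normal medium at day 3. The osteogenic day 6 value is below the floor and its ratio to normal medium is a bound, at least 1.46-fold lower. A dim further Orc1 probe set had a log2 difference of 0.96 at day 6, opposite in sign. Orc6, another subunit, had a signal of 544 in osteogenic and 767 in normal medium at day 6, and 1112 in osteogenic and 883 in normal medium at day 3.

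Cdt1, the loading factor that geminin restrains, did not share the day 6 pattern. Its signal was 2031 in osteogenic and 1802 in normal medium at day 6, and 3247 in osteogenic and 2391 in normal medium at day 3. Its log2 medium difference of 0.17 at day 6 is below the probe error. The next brightest Cdt1 probe set had 0.065. For Cdt1 the osteogenic array was thus close to the normal one at day 6 and above it at day 3, while Gmnn had a log2 difference of -0.67 at day 6 and 0.83 at day 3. Of the 5 licensing genes, 1 was lower at day 6, Cdc6, and 0 were past 2-fold at day 3.

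The 6 subunits of the MCM2-7 helicase, which form 1 ring, all lay below zero at day 6, with log2 differences from -1.02 to -0.43 and a median of -0.93. Mcm5 was past 2-fold by its brightest probe set, with a signal of 1026 in osteogenic and 2087 in normal medium at day 6, and 4662 in osteogenic and 2764 in normal medium at day 3. Its next probe set gave a log2 difference of -0.84 at day 6, not past 2-fold. Mcm6 had 2287 in osteogenic and 4448 in normal medium at day 6, and 6277 in osteogenic and 6128 in normal medium at day 3, so that normal and osteogenic medium were level at day 3. Mcm4 was level at day 3 too, with a signal of 1504 in osteogenic and 2831 in normal medium at day 6, and 3671 in osteogenic and 3709.8 in normal medium at day 3. Mcm3 had 973 in osteogenic and 1865 in normal medium at day 6, and 3073 in osteogenic and 2238 in normal medium at day 3, the osteogenic arrays being the lowest and the highest of the 4. Further Mcm3 probe sets gave log2 differences of -1.16, -1.19 and -0.42 at day 6. Whether Mcm3 or Mcm5 is past 2-fold thus depends on the probe set. Mcm7 had a signal of 2442 in osteogenic and 3769 in normal medium at day 6, and 5118 in osteogenic and 4510.4 in normal medium at day 3. Mcm2 had 1209 in osteogenic and 1633 in normal medium at day 6, and 2319.9 in osteogenic and 1856 in normal medium at day 3, the smallest medium difference of the ring at day 6. A further Mcm2 probe set gave a log2 difference of -0.71 at day 6 and -0.67 at day 3, so the day 3 direction of Mcm2 depends on the probe set.

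Of the genes that turn the loaded ring into a moving helicase, Cdc45, a part of the active helicase, was lower at day 6. Its signal was 120.0 in osteogenic and 244 in normal medium at day 6, and 312 in osteogenic and 307 in normal medium at day 3, with the other 3 arrays close together. A dim Cdc45 probe set, above the floor in osteogenic medium alone, had a log2 difference of 0.72 at day 6. Mcm10, which is needed to start the helicase, had 108 in osteogenic and 194 in normal medium at day 6, and 437 in osteogenic and 362 in normal medium at day 3, with both day 6 arrays below both day 3 arrays. Gins1 and Gins2 encode subunits of the GINS complex. Gins2 had a signal of 387 in osteogenic and 589 in normal medium at day 6, and 1258 in osteogenic and 847 in normal medium at day 3. Gins1 had 270.3 in osteogenic and 318 in normal medium at day 6, and 756 in osteogenic and 417 in normal medium at day 3, and of these 4 genes it had the largest medium difference at day 3 (log2 0.86) and the smallest at day 6 (-0.24).

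**Figure D3:**
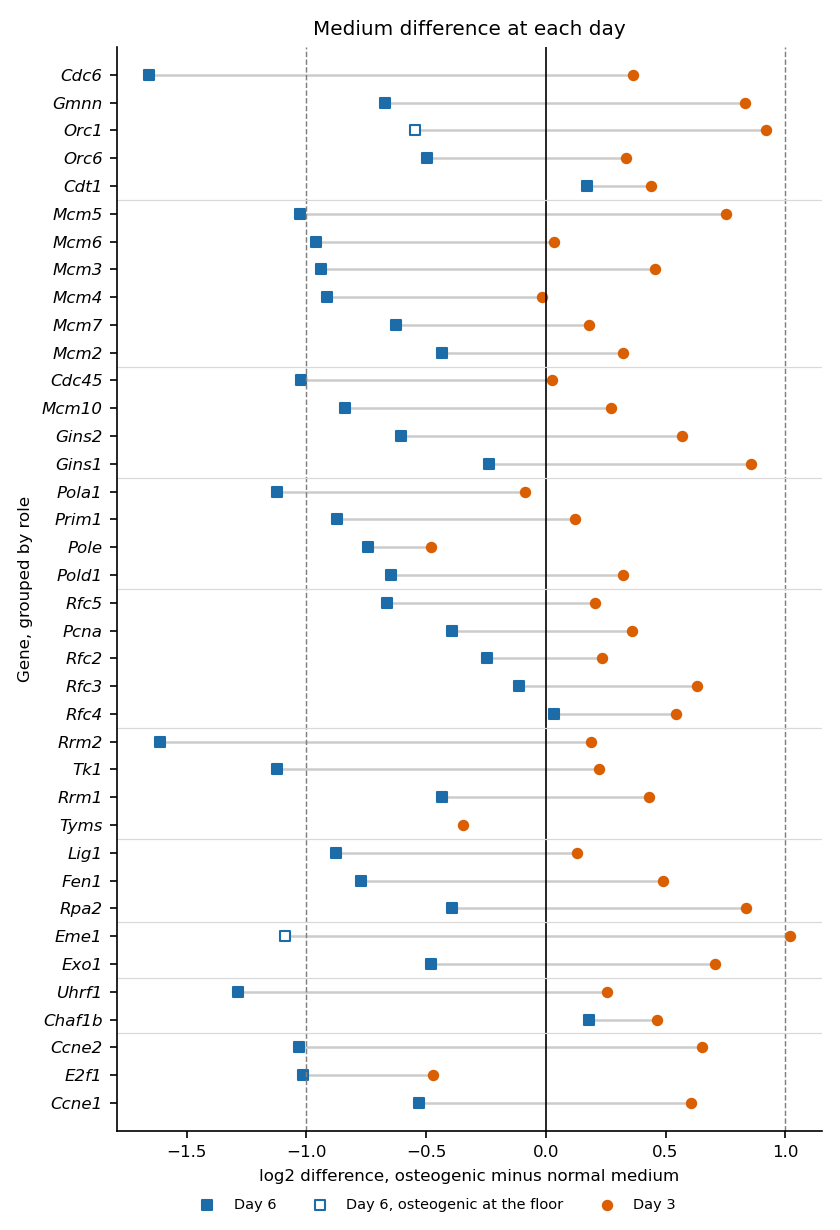
Log2 difference between osteogenic and normal medium for each replication and S phase gene (rows, grouped by role) at day 6 (squares, open where the osteogenic signal was at the floor) and at day 3 (circles), with dashed lines at 2-fold. At day 6 34 of 37 genes lie left of zero, and at day 3 33 of 38 lie right of it.

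The polymerase genes had a common direction at day 6 but none at day 3. Pola1 encodes the catalytic subunit of polymerase α, which extends the primers, and was lower at day 6. Its signal was 485 in osteogenic and 1057 in normal medium at day 6, and 1148 in osteogenic and 1217 in normal medium at day 3. Prim1, the catalytic subunit of primase, had 942 in osteogenic and 1725 in normal medium at day 6, and 2334 in osteogenic and 2146 in normal medium at day 3. Pole, the catalytic subunit of polymerase ε of the leading strand, had 219 in osteogenic and 367 in normal medium at day 6, and 460.1 in osteogenic and 642 in normal medium at day 3, the osteogenic array being below the normal one on both days by less than 2-fold. Pold1, that of polymerase δ of the lagging strand, had 395 in osteogenic and 618 in normal medium at day 6, and 852 in osteogenic and 681 in normal medium at day 3. At day 3 Pold1 and Prim1 lay above zero (log2 0.32 and 0.12) and Pole and Pola1 below (-0.48 and -0.085), and at day 6 all 4 lay below.

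The sliding clamp and its loader had the smallest medium differences at day 6 among the role groups, with a median log2 difference of -0.25 and 0 of 5 past 2-fold. Pcna, the clamp, had a signal of 7286 in osteogenic and 9567 in normal medium at day 6, and 14428 in osteogenic and 11249.5 in normal medium at day 3. Rfc5 had 604 in osteogenic and 955 in normal medium at day 6, and 1504 in osteogenic and 1305 in normal medium at day 3, the one clamp loader gene with a difference beyond 2 times the probe error at day 6. Rfc4 had 777 in osteogenic and 759 in normal medium at day 6, and 1457 in osteogenic and 998 in normal medium at day 3, level at day 6, and its further probe set gave -0.039. Rfc3 had a signal of 600.0 in osteogenic and 649 in normal medium at day 6, and 1068 in osteogenic and 689.5 in normal medium at day 3, likewise near level at day 6 and higher on the osteogenic than on the normal array at day 3, by 1.55-fold. Rfc2 had 917 in osteogenic and 1088 in normal medium at day 6, and 1375 in osteogenic and 1169.9 in normal medium at day 3. Its further probe sets gave log2 differences of 0.29 and 0.0019 at day 6, so its direction is not settled. The clamp loader opens the clamp and sets it on primed DNA, and Rfc2 to Rfc5 are its small subunits.

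Nucleotide supply held some of the lowest ratios of osteogenic to normal medium. Rrm2 encodes the small, S phase-restricted subunit of ribonucleotide reductase, which makes deoxyribonucleotides. It had a signal of 735 in osteogenic and 2247 in normal medium at day 6, and 3299 in osteogenic and 2894 in normal medium at day 3, 3.06-fold lower in osteogenic medium at day 6. Its other 2 probe sets gave log2 differences of -1.33 and -1.21. Rrm1, the large subunit, is longer lived as a protein than Rrm2, and its signal was 3196 in osteogenic and 4322 in normal medium at day 6, and 6155 in osteogenic and 4570.4 in normal medium at day 3, 1.35-fold lower at day 6. Tk1, the cytosolic thymidine kinase of the salvage pathway, had 569 in osteogenic and 1238 in normal medium at day 6, and 2301 in osteogenic and 1972 in normal medium at day 3.

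Tyms, which makes thymidylate, was at the floor on both day 6 arrays by the probe set that stands for it here, with a signal of 24.3 in osteogenic and 49.0 in normal medium at day 6, and 100.1 in osteogenic and 127 in normal medium at day 3. Its medium difference at day 6 could thus not be measured. A bright probe set that the annotation gives to both Tyms and its pseudogene Tyms-ps had 933 in osteogenic and 1637 in normal medium at day 6, and 2743 in osteogenic and 2132 in normal medium at day 3. Which of the 2 transcripts it measures cannot be told apart here, and it entered no count.

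Of the genes that bind, trim and seal new strands, none was past 2-fold between media at either day. Lig1, the ligase that joins Okazaki fragments, had a signal of 553 in osteogenic and 1016 in normal medium at day 6, and 1524 in osteogenic and 1390.0 in normal medium at day 3. Fen1, the nuclease that removes their primers' flaps, had 604 in osteogenic and 1030.3 in normal medium at day 6, and 1269 in osteogenic and 904 in normal medium at day 3. Rpa2, a subunit of the protein that coats single-stranded DNA, had 349 in osteogenic and 458 in normal medium at day 6, and 837 in osteogenic and 469 in normal medium at day 3. The osteogenic day 3 array is the highest of the 4 for all 3 genes and the osteogenic day 6 array the lowest.

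The repair nucleases are Eme1 and Exo1, and Eme1 alone was past 2-fold between media. Eme1, partner of Mus81 in cutting stalled forks and recombination intermediates, had a signal of 9.88 in osteogenic and 123 in normal medium at day 6, and 189 in osteogenic and 93.4 in normal medium at day 3. It was the 1 gene higher in osteogenic medium at day 3, by 2.03-fold, and not past 2-fold there without the rescaling, and it was at least 2.13-fold lower at day 6, where the osteogenic value is below the floor; Eme1 has 1 probe set. Exo1, the exonuclease of mismatch repair and end resection, had 94.1 in osteogenic and 131 in normal medium at day 6, and 473 in osteogenic and 289 in normal medium at day 3. Its next probe set gave a log2 medium difference of -1.43 at day 6, against -0.48 for the brighter one.

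In chromatin copying, Uhrf1 and Chaf1b parted at day 6. Uhrf1 brings the maintenance DNA methyltransferase to newly copied DNA. It had a signal of 613 in osteogenic and 1495 in normal medium at day 6, and 2721 in osteogenic and 2280.3 in normal medium at day 3, 2.44-fold lower in osteogenic medium at day 6. A further probe set gave a log2 difference of -1.39. Chaf1b, a subunit of the chromatin assembly factor that deposits histones behind the fork, had 487 in osteogenic and 429 in normal medium at day 6, and 929 in osteogenic and 673 in normal medium at day 3, above zero at both days by less than the probe error at day 6.

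The G1/S regulators include cyclins E1 and E2, which activate Cdk2 at S phase entry, and E2f1, an activator of the genes described here. Ccne2 had a signal of 332 in osteogenic and 680.2 in normal medium at day 6, and 1189 in osteogenic and 756 in normal medium at day 3, past 2-fold at day 6. Ccne1 had 239.7 in osteogenic and 346 in normal medium at day 6, and 540.4 in osteogenic and 355 in normal medium at day 3. Its other probe set gave a log2 difference of -1.39 at day 6 and -0.15 at day 3, so the direction of Ccne1 at day 3 is not settled. E2f1 had 344 in osteogenic and 695 in normal medium at day 6, and 627 in osteogenic and 871 in normal medium at day 3, past 2-fold at day 6 by its brightest probe set, while the next gave -0.030 at day 6 and 0.25 at day 3.

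The probe sets of most genes gave the same direction. Where a gene had another measured probe set, the brightest of these shared the sign of the medium difference at day 6 in 20 of 24 genes (not Cdc45, Orc1, Rfc2 and Rfc4) and at day 3 in 18 of 23 (not Ccne1, E2f1, Mcm2, Mcm4 and Rfc2). For day 6 against day 3 it shared the sign in 21 of 24 genes in osteogenic medium (not Cdc45, Chaf1b and Orc1) and in 18 of 22 in normal medium (not Fen1, Orc1, Rpa2 and Rrm1).

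Day 6 and day 3 were next compared within each medium on the same 4 arrays, so these values share arrays with those above. In osteogenic medium all 38 genes lay below zero for day 6 minus day 3 (50.1% of all genes) and 0 above it (49.9%), 28 were lower at day 6 (2.62% of all genes), 0 were higher (3.70%), and the median log2 difference was -1.30, beside -0.0012 over all genes. In normal medium 36 of 38 lay below zero (52.3% of all genes) and 2 above it (47.7%), 2 were lower (0.741%), 0 were higher (0.741%), and the median was -0.33, beside -0.015. The lower genes in normal medium were Exo1 (2.21-fold) and Tyms (at least 2.20-fold), and 0 were lower with all probe sets of each gene averaged. The next Exo1 probe set had a log2 difference of -0.29 there, and the bright probe set of Tyms and Tyms-ps had -0.38. The log2 difference was lower in osteogenic than in normal medium for 37 of 38 genes, and for Tyms, a bound in both media, the order is not known.

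Leaving out the bounds of Orc1, Eme1 and Tyms, the largest differences between days in osteogenic medium were those of Cdc6, 5.45-fold lower at day 6 than at day 3, Exo1 (5.03-fold), Mcm5 (4.55-fold), Rrm2 (4.49-fold), Uhrf1 (4.44-fold), Tk1 (4.05-fold) and Mcm10 (4.04-fold). The same genes in normal medium had ratios of 1.34, 2.21, 1.32, 1.29, 1.53, 1.59 and 1.87 in that order, all lower at day 6. The 10 genes not counted as lower in osteogenic medium were Mcm2, Cdt1, Pcna, Rfc2, Rfc3, Rfc4, Rrm1, E2f1 and Chaf1b, with log2 differences from -0.99 for Pcna to -0.59 for Rfc2, and Tyms, whose -0.79 is a bound, so that it may lie past 2-fold. By role, all 4 helicase activators, all 4 polymerase genes and all 3 genes that bind, trim and seal new strands were lower. Of 5 clamp and clamp loader genes 1 was, Rfc5. Some further probe sets were not past 2-fold, with -0.71 for Rpa2, -0.96 and -0.71 for Mcm7 and -0.90 for Mcm3. Dim ones gave 0.060 for Cdc45 and 0.79 for Orc1, opposite in sign, and -0.11 for Mcm5. Those of Rfc4 (-1.03) and Rrm1 (-1.22) were past 2-fold. In normal medium Fen1 and Eme1 lay above zero, with log2 differences of 0.19 and 0.40. That of Fen1 is below the probe error of 0.21, and its further probe set gave -0.44.

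**Figure D4:**
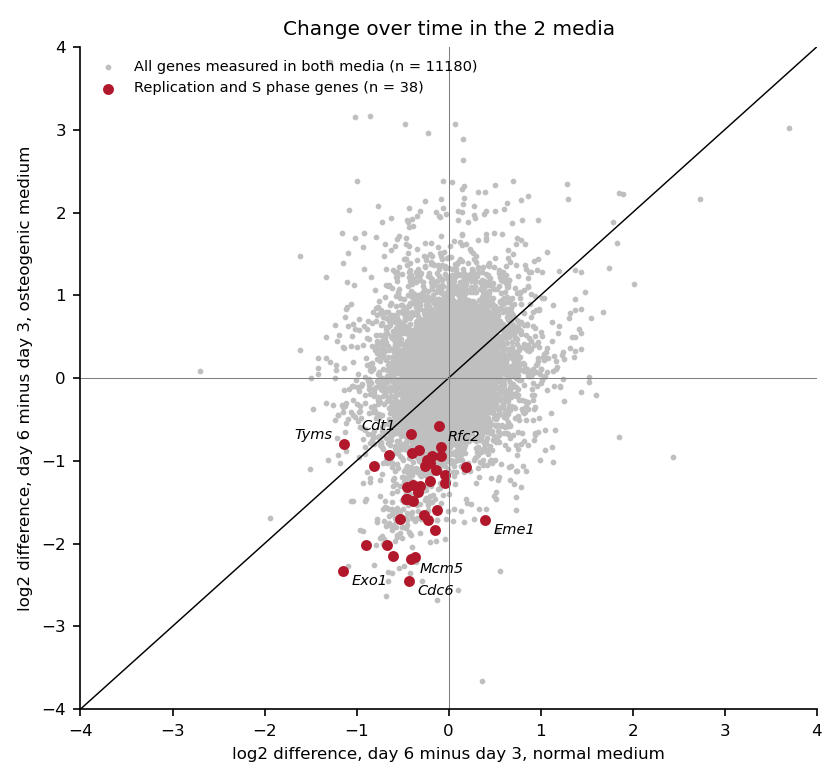
Log2 difference between day 6 and day 3 in osteogenic medium (vertical axis) and in normal medium (horizontal axis) for all genes measured in both (grey) and for 38 replication and S phase genes (red), with the line of equal difference. All but Tyms of the red points lie below the line, and all lie below zero on the vertical axis; Orc1, Eme1 and Tyms are bounds.

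The change of the medium difference from day 3 to day 6 lay below zero for all 37 genes measured at both days (51.2% of all genes), with a median of -1.04 on the log2 scale, beside -0.012 over all genes, and 20 of 37 were past 2-fold in that direction (3.23% of all genes) and 0 in the other (4.54%); with probe sets averaged, 13 were. By arithmetic this change is the day difference in osteogenic minus that in normal medium, so it is no separate result. The change was at least 2-fold and a bound for Eme1 (-2.11) and Orc1 (-1.47). It was largest among the other genes for Cdc6 (-2.02), Rrm2 (-1.80) and Mcm5 (-1.78), and smallest for Pole (-0.26), Cdt1 (-0.27) and Chaf1b (-0.28).

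The 4 arrays were fitted with limma as the sum of a medium and a day effect, with 1 residual degree of freedom. This was the one test the design allowed, and its residual also holds the change of the medium difference just described. For day 6 against day 3 it called 0 of 12503 genes after Benjamini-Hochberg adjustment (0% of all genes), with 919 genes (7.35%) at an unadjusted p under 0.05. Of the replication genes 0 of 38 passed after adjustment, and 22 had an unadjusted p under 0.05. Their fitted log2 differences between days ran from -1.74 to -0.34 with a median standard error of 0.29, all 38 below zero, and limma's adjusted p ran from 0.67 to 0.78. For osteogenic against normal medium it called 0 of 12503 genes (0%), with 1737 (13.9%) at an unadjusted p under 0.05, and 0 of 38 replication genes, with 2 unadjusted, E2f1 and Pole. Their fitted medium differences ran from -0.74 to 0.32 with adjusted p from 0.29 to 0.997. With so few arrays a count of 0 from this fit does not show that a gene was unchanged, and the differences above are values without a test that passed.

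Other genes of replication, a list of 50 of which 47 had a probe set, lay in the same direction with a smaller median. At day 6, 5 of 47 were lower (2.78% of all genes), 0 were higher (4.18%) and 40 lay below zero (48.8%). The median log2 difference was -0.48. At day 3, 0 of 47 were higher (1.99% of all genes) and 0 lower (1.59%), and the median was 0.10. Asf1b, a histone chaperone of the fork, had a signal of 137 in osteogenic and 352 in normal medium at day 6, and 534 in osteogenic and 387 in normal medium at day 3. Atad5, which unloads PCNA after use, was 2.52-fold lower in osteogenic medium at day 6, and Clspn, a mediator of the replication checkpoint, 2.16-fold. The 7 genes above zero at day 6, named after their values were seen, were Pold4, Rpa3, Orc4, Pole4, Orc2, Rnaseh2a and Gins4, with log2 differences from 0.27 to 0.72.

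Mitosis genes, the next step of the division cycle, had 6 of 22 lower and 0 higher in osteogenic than in normal medium at day 6. Of all measured genes 2.78% were lower and 4.18% higher there. The median log2 difference of the mitosis genes was -0.86. At day 3, 0 of 22 were higher (1.99% of all genes) and 0 lower (1.59%), and the median was 0.29. Nuf2, a kinetochore subunit, was 2.84-fold lower at day 6 and the proliferation marker Mki67 2.61-fold. Over time in osteogenic medium 19 of 22 mitosis genes were lower at day 6 (2.62% of all genes), with a median of -1.69. For the replication genes these values were 28 of 38 and -1.30. No test of the difference between these lists was made.

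**Figure D5:**
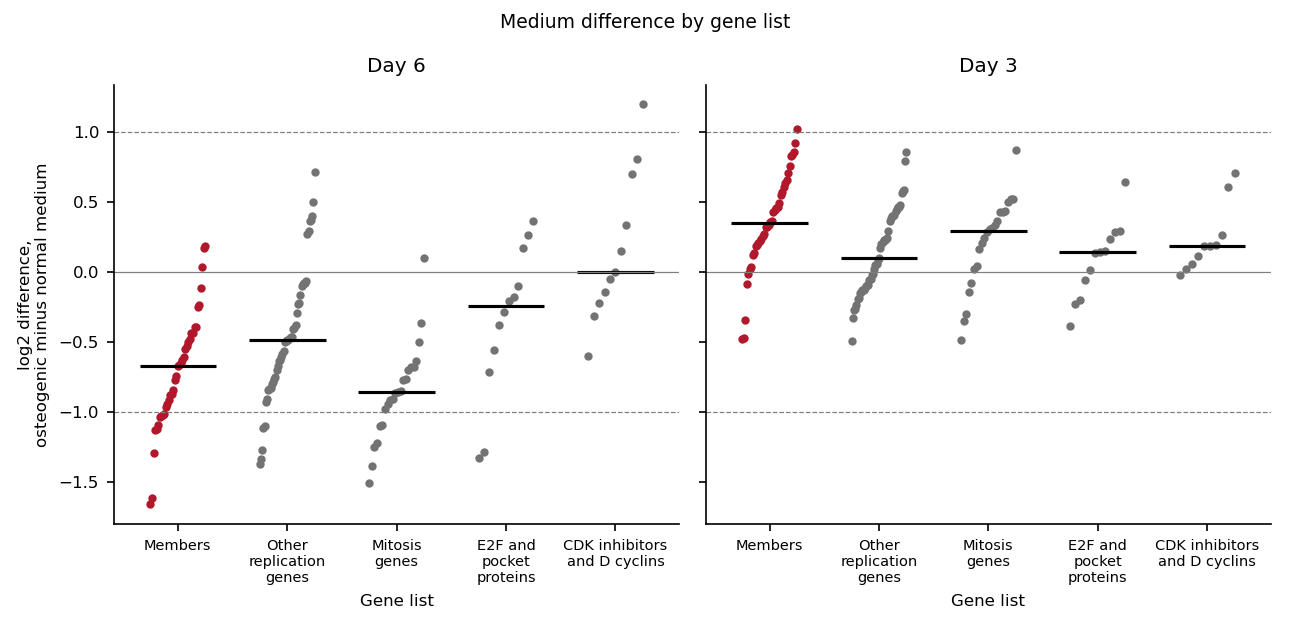
Log2 difference between osteogenic and normal medium at day 6 (left) and day 3 (right) for the replication and S phase genes (members, red) and 4 other gene lists (grey), 1 point per measured gene, with the median as a black bar and dashed lines at 2-fold. The medians of the members and the mitosis genes lie below zero at day 6 (-0.67 and -0.86) and above it at day 3 (0.35 and 0.29).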

How the data were processed

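Total RNA (500 ng, integrity number above 9.5) was amplified and labelled by 3′ in vitro transcription for Affymetrix Mouse Genome 430 2.0 arrays, per the labels' protocols. The deposited values are linear intensities, 1 for each probe set on an array; the mean without the lowest and highest 2% was 499.8 on each array, so the arrays had been scaled before deposit. The summary method is not given in the sources used here. Of 45101 probe sets, 64 were controls; in the annotation used here 34945 carried 1 gene symbol, 932 more than 1 and 9160 none.

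Each array was multiplied by a factor of 0.988 to 1.02 to reach a common 75th percentile, values below the pooled 50th percentile were set to it, and the result was put on the log2 scale. For each gene the probe set with the highest mean stands for it. Probe error was 1.4826 times the median absolute deviation of differences between probe sets of a gene, over the square root of 2. The additive fit used limma 3.58.1 in R 4.3.3. It was also run on simulated data with planted day differences of -1 and -2 on the log2 scale, alike in both media. It called none of them, so its count of 0 for the day does not show that genes were unchanged. No medium difference and no change of it between days was simulated. With so few arrays the count of 0 for the medium does not show that genes were unchanged either. The members, gene lists and tests were chosen with earlier results of these data known. All members are named; of the other lists, up to 4 genes with the largest medium difference at day 6 were eligible. Alternatives changed scaling, floor, filter, probe set choice and variance model. No p-value was computed for single pairs of arrays.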

Additional observations from a re-analysis of the deposited data

Results flagged for a closer look

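The medium difference of the replication genes lay on opposite sides of zero at the 2 days. The median was -0.67 at day 6 and 0.35 at day 3 on the log2 scale, and the median change was -1.04. Each side rests on 1 pair of arrays, and the difference between the days was not tested. For 9 of the 37 genes measured at both days, the medium difference was beyond 2 times the probe error in opposite directions at the 2 days. Their changes on the log2 scale were -2.11 for Eme1, -1.78 for Mcm5, -1.69 for Ccne2, -1.50 for Gmnn, -1.47 for Orc1, -1.26 for Fen1, -1.19 for Exo1, -1.18 for Gins2 and -1.14 for Ccne1. The values of Eme1 and Orc1 are bounds. The share of all genes past the same limits was not counted. Eme1, Ccne2 and Gmnn have 1 probe set. The next probe set of Mcm5 passed the same limits on both days, and those of Orc1, Ccne1, Exo1, Fen1 and Gins2 did not: Orc1 had 0.96 at day 6 and Ccne1 -0.15 at day 3, opposite in sign, Exo1 had 0.086 at day 3, and Fen1 had -0.40 and Gins2 -0.31 at day 6. The pattern of these 5 genes thus depends on the probe set. No group has enough arrays to look for outlying samples.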

How the results depend on the processing

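The medians and counts of the replication genes and the counts of the additive fit were recomputed under each alternative, 198 values in all, of which 187 stayed within the probe error or within 1.5 times the reported count and 11 did not. No median changed sign, and no gene past 2-fold did. The median log2 difference ranged from -0.76 to -0.57 for the medium at day 6, from 0.30 to 0.37 at day 3, from -1.31 to -1.05 for the days in osteogenic medium and from -0.35 to -0.25 in normal medium. Averaging all probe sets of a gene, some of them at the floor, gave 6 lower genes at day 6, a median of -1.05 between days in osteogenic medium, 0 lower genes between days in normal medium, and 13 genes past 2-fold for the change. The count of genes higher at day 3 was 0 with no further scaling, with a pseudocount of 16 and with a floor set at percentile 60. The lower genes between days in normal medium were 1 with that higher floor and 1 when both arrays had to be above the floor. An intensity trend in limma called 2 genes for the medium and 1 for the day, 0 of them replication genes. Leaving out probe sets that can bind several transcripts, an alternative chosen after seeing the data, changed none of these calls by over 1.5 times. Leaving out an array was not possible, since each group has 1 and the additive fit would have no residual degree of freedom. No paired analysis of replicates was possible, again because each group has 1 array.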

Other observations

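Of 12 E2F and pocket protein genes, 2 were lower (2.78% of all genes) and 0 higher (4.18%) in osteogenic than in normal medium at day 6. Their median log2 difference was -0.25. The 2 lower genes were E2f8 and E2f7, repressors that are themselves made in S phase. E2f8 had a signal of 99.6 in osteogenic and 249.8 in normal medium at day 6, and 368 in osteogenic and 334 in normal medium at day 3. E2f7 had 145 in osteogenic and 352 in normal medium at day 6, and 469 in osteogenic and 487 in normal medium at day 3. The pocket protein gene Rbl2 had a log2 difference of -0.71 at day 6 and Tfdp1, the dimer partner of E2F factors, -0.56.

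Of 11 measured CDK inhibitor, D cyclin and CDK genes, 1 was higher (4.18% of all genes) and 0 were lower (2.78%) at day 6. Their median was -0.0035. Cdkn1a, which encodes the CDK inhibitor p21, had a signal of 10684 in osteogenic and 4668 in normal medium at day 6, and 9685 in osteogenic and 5936 in normal medium at day 3, 2.29-fold higher in osteogenic medium at day 6 and 1.63-fold at day 3. Ccnd1, the cyclin of G1 progression, was 1.75-fold higher at day 6 and 1.53-fold at day 3, and the inhibitor gene Cdkn2c had a log2 difference of -0.60 at day 6 and 0.20 at day 3. So Cdkn1a and Ccnd1 were above normal medium at both days, while the median of the replication genes was above it at day 3 alone.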
